A study of Drosophila melanogaster with 6 samples.

Results

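The genes described here are 36 genes of the sarcomere, the contractile unit of striated muscle, and of muscle contraction. They were taken by symbol, without use of their values, and 30 of them had at least 1 probe set that the platform's annotation gives to that gene alone, out of 11953 genes with such a probe set. The data are 6 Affymetrix arrays of whole adult Drosophila melanogaster females reared at 25 °C, 3 of Calment1/4, a mutant isogenized into a stock called CS10, and 3 of CanS (Canton-S), the wild-type stock it was set against. Each sample pooled 30 to 35 flies, so an array is an average over animals. The flies' age beyond adulthood is not given in the labels, and genotype and stock history change together between the groups. Each value is a log2 expression summary of 1 probe set on 1 array, and a gene with several probe sets is read from its brightest one by the mean of 6 arrays.

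Striated muscle contracts when myosin heads of the thick filaments pull on actin of the thin filaments, which are anchored at the Z disc, while calcium released from the sarcoplasmic reticulum acts through troponin and tropomyosin to switch the thin filament on. Insect flight rests on the indirect flight muscles of the thorax, fibrillar muscles that are activated by stretch and use their own isoforms of several sarcomere proteins. In a whole fly these muscles are measured together with the tubular muscles of the legs, jump muscle and body wall. In pooled whole animals, fewer muscle fibres and less RNA per fibre cannot be told apart.

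The list of 36 falls into thick filament, thin filament, Z disc and titin-like, calcium and energy, and regulator and attachment genes. Mhc, Act57B, Tm1, wupA, TpnC47D and Mef2 had no probe set named for them alone and were not analysed here. The member Unc-89 is named Obsc in the RefSeq annotation. By that annotation (Release 6 plus ISO1 MT) the 30 genes lie on chromosome X (4 genes) and on arms 2L (1), 2R (8), 3L (8) and 3R (9). Of the 30, 20 were read from probe sets among the brightest 10% of all tested, and the dimmest was Zasp67, with a percentile rank of 38.7 among the 18769 tested probe sets. Brightness depends on the probe set and does not rank the genes by abundance. For Act87E, Tm2, tmod, sals and Mlp84B the probe set has the suffix _s_at and for mys _x_at, which Affymetrix uses for probes that can bind transcripts of more than 1 gene, so these 6 values may include relatives. In earlier results of these data Calment1/4 replicate 1 and CanS replicate 3 stood apart from the other arrays.

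None of the 30 genes passed an adjusted p of 0.05 in limma, where 0.464% of all tested probe sets did. None reached an unadjusted p under 0.05 either, against 7.67% of all probe sets, and in none did the 3 Calment1/4 arrays lie wholly above or below the 3 CanS arrays, against 12.6% of all. The smallest adjusted p was 0.662, for Mlc2. The median difference of the 30 genes, Calment1/4 minus CanS, was -0.05 on the log2 scale, with 20 genes below 0 and 10 above. Over all genes the median was 0.0051 and 48.1% were below 0. The largest differences were -0.55 for Act88F and 0.18 for sls, so no measured member differed by 1.5-fold between the group means. The 95% interval of the difference stayed within a 2-fold change either way for 27 of the 30 genes and within a 1.5-fold change for 22, against 97.6% and 91.2% of all genes. The 3 whose intervals reached past 2-fold were Act88F, fln and Strn-Mlck. With Calment1/4 replicate 1 and CanS replicate 3 both left out, again no member passed (lowest adjusted p = 0.538 in limma, Zasp67), and the median difference of the members was -0.04.

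**Figure D1:**
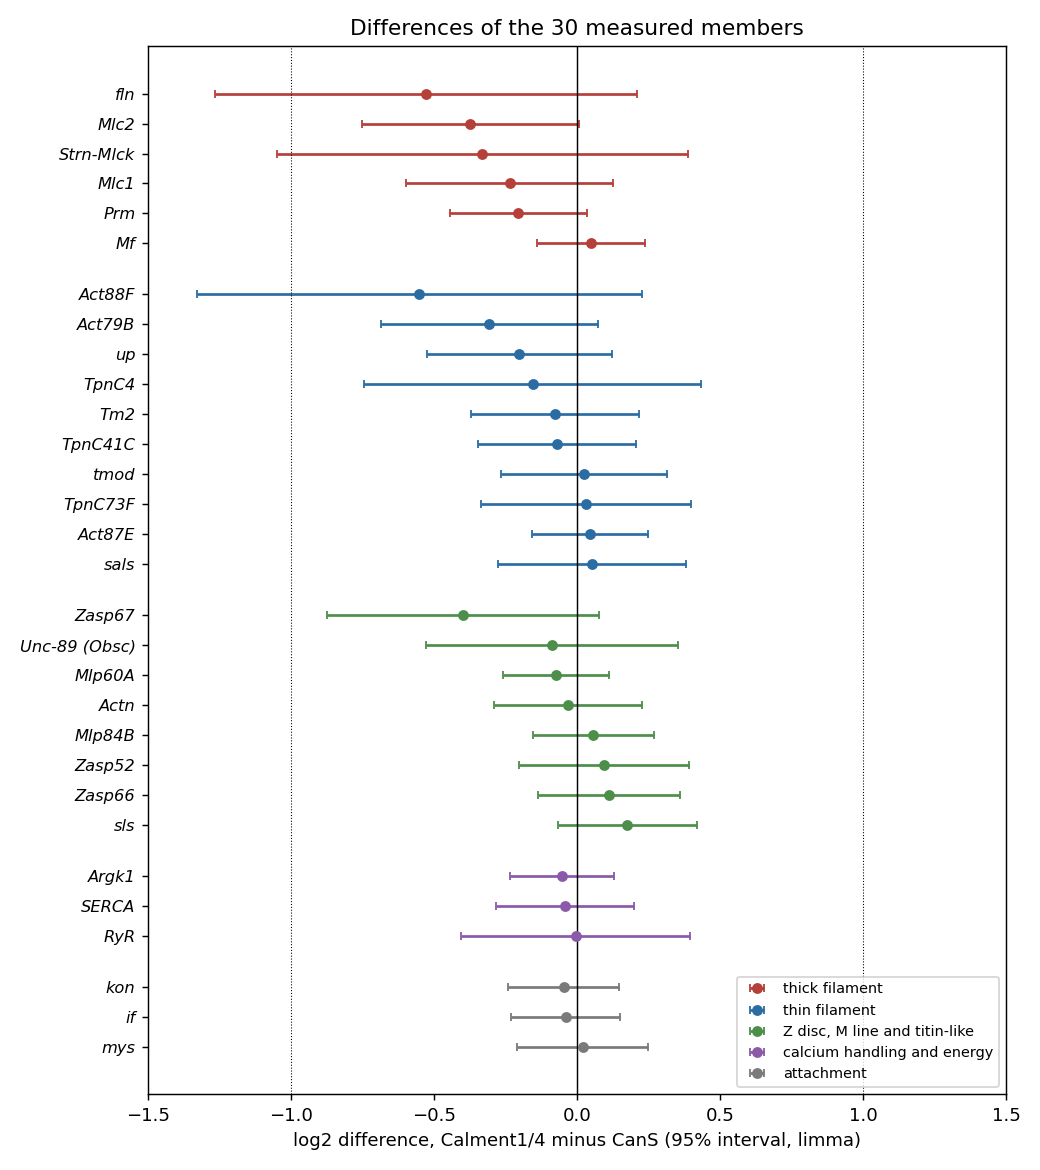
Difference in log2 expression, Calment1/4 minus CanS, for the 30 measured genes (points, limma) with 95% intervals (bars), coloured by role, with dotted lines at a 2-fold change. Every interval includes 0, and those of Act88F, fln and Strn-Mlck are the ones that extend below -1.

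The flight-muscle isoforms were among the most variable members. They are Act88F and TpnC4, with fln counted among them as a flight-muscle gene although it has no counterpart in the other isoforms. Act88F is the actin of the indirect flight muscles. Its log2 values were 12.27, 12.23 and 11.76 in Calment1/4 replicates 1 to 3, and 12.98, 11.75 and 13.19 in CanS replicates 1 to 3. CanS replicates 1 and 3 lay above every Calment1/4 array, while CanS replicate 2 lay level with the lowest Calment1/4 array, so the groups overlap. Calment1/4 arrays averaged 12.09 ± 0.29 and CanS arrays 12.64 ± 0.78 (SD over 3 arrays), a difference of -0.55 (SE 0.34, adjusted p = 0.837 in limma, 95% interval -1.33 to 0.23). From the lowest to the highest array Act88F spanned 2.71-fold.

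Flightin, encoded by fln, binds the thick filaments of the indirect flight muscles. It measured 12.0002, 11.70 and 11.37 in Calment1/4, against 12.30, 11.47 and 12.89 in CanS. Its arrays were ordered almost as those of Act88F, with CanS replicates 1 and 3 on top and CanS replicate 2 and Calment1/4 replicate 3 at the bottom, and its span was 2.87-fold. The group means were 11.69 ± 0.31 in Calment1/4 and 12.22 ± 0.72 in CanS, and the difference was -0.53 (SE 0.32, adjusted p = 0.832 in limma).

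TpnC4, the troponin C tied to stretch activation of flight muscle, stood at 12.02, 11.47 and 11.29 in Calment1/4, and at 11.86, 11.22 and 12.17 in CanS. Here Calment1/4 replicate 1 lay above CanS replicate 1, but CanS replicate 3 was again the highest array and CanS replicate 2 the lowest. The means of 11.59 ± 0.38 in Calment1/4 and 11.75 ± 0.49 in CanS gave a difference of -0.16 (SE 0.26, adjusted p = 0.994 in limma).

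The related actins and troponin Cs that serve mainly other muscles spanned less. Act79B, an actin of the tubular thoracic muscles such as the jump muscle, had values of 12.21, 12.28 and 12.11 in Calment1/4, against 12.82, 12.11 and 12.59 in CanS. It shared the high CanS replicates 1 and 3, and its difference was -0.31 (SE 0.17, adjusted p = 0.773 in limma). Act87E, an actin of body wall muscle, was nearly level, at 11.88, 11.77 and 11.78 in Calment1/4, and 11.80, 11.63 and 11.86 in CanS. TpnC41C, a troponin C of adult muscle, measured 11.44, 11.33 and 11.25 in Calment1/4 and 11.48, 11.16 and 11.58 in CanS, with CanS replicate 2 lowest. TpnC73F, a troponin C found in larval and adult muscles, did not follow that order, with 9.34, 8.94 and 8.87 in Calment1/4 and 8.75, 9.07 and 9.24 in CanS. Differences of Act87E, TpnC41C and TpnC73F were 0.04, -0.07 and 0.03 (adjusted p = 0.995 each in limma).

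**Figure D2:**
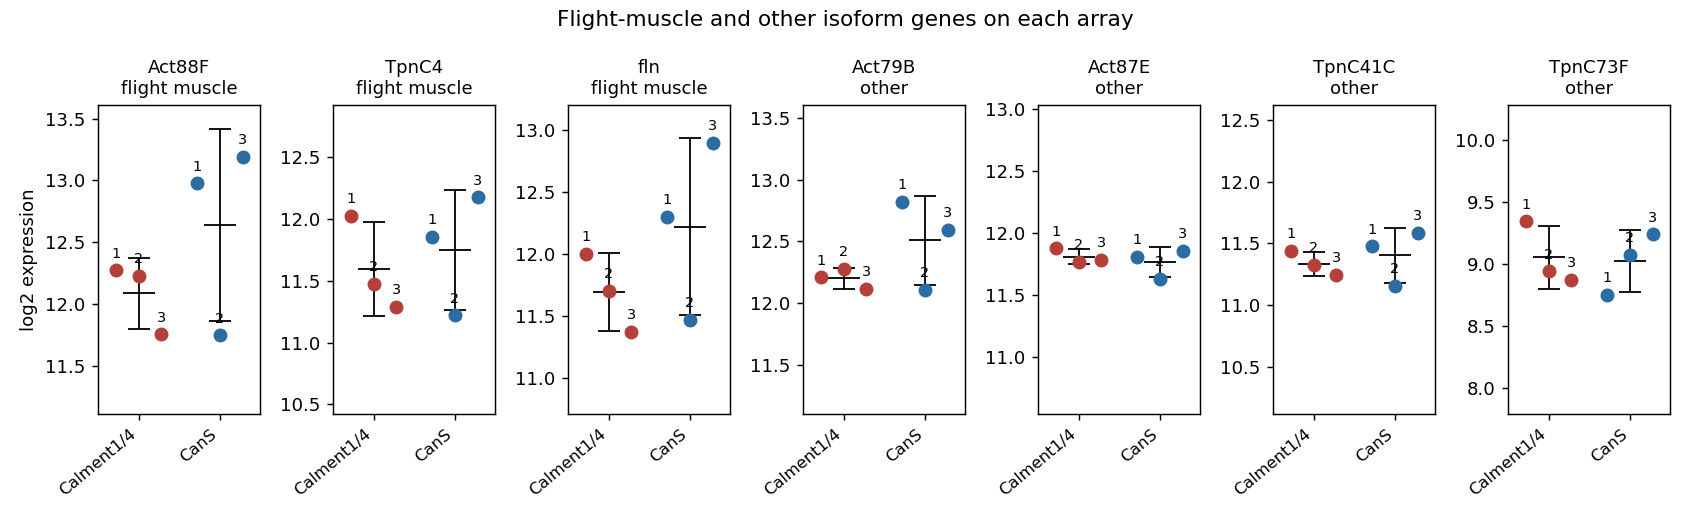
Log2 expression (vertical axes of equal length) of the actin and troponin C isoform genes and fln on each array. Calment1/4 is red and CanS blue, with replicate numbers beside the points and the group mean ± SD in black. Act88F, TpnC4 and fln spread over 1.44, 0.95 and 1.52 log2 units, and the 4 other isoforms over 0.25 to 0.71.

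The flight-muscle isoforms Act88F and TpnC4, taken with fln, had a median difference of -0.53 and the 4 other isoforms -0.02. That median is the value of fln, which is not an isoform of the others. The actin Act88F was at -0.55 and the troponin C TpnC4 at -0.16. Around each gene's mean over 6 arrays, the median of the flight-muscle isoforms minus that of the others was -0.03, -0.14 and -0.44 in Calment1/4 replicates 1 to 3, against 0.28, -0.30 and 0.62 in CanS replicates 1 to 3. The groups overlap, and the mean of this contrast was -0.20 ± 0.21 in Calment1/4 and 0.20 ± 0.47 in CanS. No test was made of a contrast over so few chosen genes. The size of the difference of the flight-muscle isoforms alone depended on single arrays. The median difference of these 3 genes was -0.91 without CanS replicate 2 and -0.19 when CanS replicate 3 was dropped instead. With the arrays that stood apart both dropped, it was -0.35.

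Of the other thick filament genes, Mlc2, Mlc1, Prm and Strn-Mlck also had CanS replicates 1 and 3 as their highest arrays, and Mf did not. Mlc2, the regulatory light chain of myosin, had the smallest p of the 30. Its values were 12.11, 12.02 and 11.84 in Calment1/4, against 12.49, 11.97 and 12.62 in CanS, a difference of -0.37 (SE 0.17, 95% interval -0.75 to 0.0060). Only CanS replicate 2 kept the groups from separating, since it lay below the upper Calment1/4 arrays. Mlc1, the essential light chain, measured 12.87, 12.74 and 12.56 in Calment1/4 and 13.09, 12.60 and 13.19 in CanS, a difference of -0.24 (adjusted p = 0.867 in limma). Prm, which encodes the paramyosin of the filament core, had 11.43, 11.29 and 11.23 in Calment1/4 and 11.57, 11.34 and 11.66 in CanS, a difference of -0.21 (adjusted p = 0.747 in limma). A second, dimmer probe set of Prm gave -0.22.

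Strn-Mlck, a titin-family gene that encodes a myosin light chain kinase, was the widest of the remaining thick filament genes. Its brightest probe set read 10.07, 9.55 and 9.32 in Calment1/4, and 10.21, 9.24 and 10.49 in CanS, a span of 2.38-fold with a difference of -0.33 (SE 0.31, adjusted p = 0.930 in limma). Its other probe sets spanned 1.39-fold and 1.22-fold, with differences of 0.07 and -0.04. Mf, whose product myofilin is a thick filament protein, was the most even, with a within-group SD of 0.07 and a difference of 0.05. It measured 13.44, 13.41 and 13.37 in Calment1/4, against 13.45, 13.26 and 13.36 in CanS, so CanS replicate 3 lay below every Calment1/4 array. A second probe set of Mf spread more, with an SD of 0.28 and a difference of -0.08. The 6 thick filament genes measured had a median difference of -0.28, with 5 below 0.

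Among the thin filament genes outside the actins and troponin Cs, up, which encodes troponin T, had 9.59, 9.35 and 9.24 in Calment1/4 and 9.70, 9.32 and 9.78 in CanS. CanS replicates 1 and 3 were once more its highest arrays, and its difference was -0.20 (SE 0.14, adjusted p = 0.878 in limma). Tm2, a tropomyosin, differed by -0.08. The pointed end of the thin filament is capped by tropomodulin, from tmod (0.02), and lengthened through sals (0.05), and neither showed a difference beyond its spread. The 10 thin filament genes had a median of -0.07, with 6 below 0.

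At the Z disc, Zasp67, a PDZ-domain protein of the Zasp family, was the dimmest gene and the most variable of its group. It stood at 4.86, 4.61 and 4.34 in Calment1/4, against 5.13, 4.54 and 5.34 in CanS, a difference of -0.40 (SE 0.21, adjusted p = 0.756 in limma). It had the same CanS replicates on top as Act88F. Its relatives Zasp52 and Zasp66 were at 0.09 and 0.11, and Actn, the alpha-actinin that crosslinks thin filaments there, at -0.03.

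The titin-like gene sls (Sallimus), which links the Z disc to the thick filament, lay on the other side of 0. Its brightest probe set gave 9.43, 9.42 and 9.42 in Calment1/4, and 9.47, 9.12 and 9.15 in CanS. The Calment1/4 arrays were nearly equal (SD 0.0093), with CanS replicate 1 above them and the other 2 CanS arrays below, so CanS replicate 3, high for the flight-muscle genes, was low here. The difference was 0.18 (SE 0.11, adjusted p = 0.829 in limma), and 2 further probe sets gave 0.13 and 0.22. Unc-89, the obscurin gene of the M line, differed by -0.09 with a CanS SD of 0.43. The muscle LIM protein genes Mlp60A and Mlp84B were at -0.07 and 0.06. The 8 genes of this group had a median of 0.01, 4 on each side of 0.

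Calcium handling and energy genes were close to level between the groups. SERCA, the calcium pump of the sarcoplasmic reticulum, differed by -0.04 and RyR, its calcium release channel, by -0.01. RyR nevertheless had an SD of 0.39 in CanS, against 0.07 in Calment1/4. Argk1, the arginine kinase that buffers ATP in insect muscle, was among the steadiest members, at -0.05 with a within-group SD of 0.06. The attachment genes were also level, at -0.05 for kon, which encodes a transmembrane protein of muscle attachment, -0.04 for if, the alpha subunit of a muscle integrin, and 0.02 for mys, its beta subunit. These 3 spanned 0.19 to 0.25 log2 units over the 6 arrays.

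Several members spread widely between replicate arrays. The members' within-group SD (pooled over both groups) had a median of 0.19, against 0.13 over all genes and 0.11 over the brightest 10% of probe sets. Act88F, fln, Strn-Mlck and TpnC4 stood at percentile ranks of 99.3, 99.2, 99.1 and 98.6 for this SD among all probe sets, whereas Argk1, Mlp60A and Mf stood at 10.2, 12.3 and 16.4. The SD was larger in CanS than in Calment1/4 for 25 of the 30 genes, while this held for 44.3% of all genes. It also held for 8 of 9 neuron markers and 8 of 10 eggshell markers. Among germline, gut, and fat body and haemocyte markers it held for 3 of 11, 4 of 8 and 7 of 12. The eggshell markers had a larger median within-group SD than the members, at 0.46, but their median SD was 0.45 in either group. Median SDs were 0.11 in Calment1/4 and 0.23 in CanS for the members, and 0.12 and 0.11 for all genes. Members share arrays and are not independent of each other, and no test of this contrast was made.

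**Figure D3:**
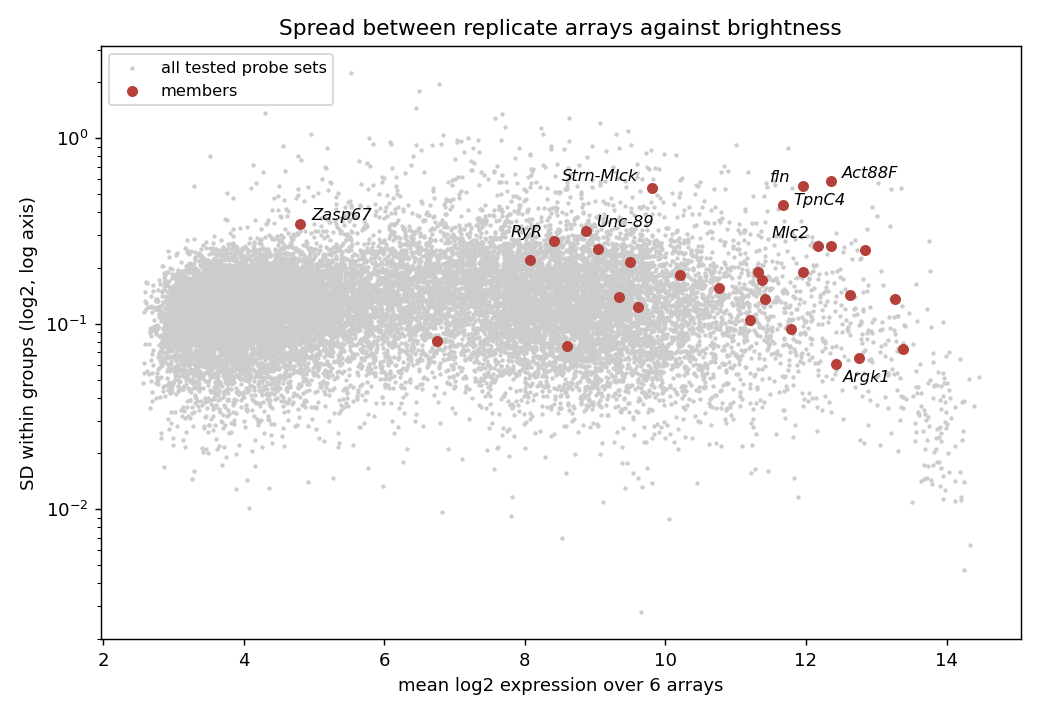
Within-group SD of the log2 values (logarithmic axis) against mean log2 expression over 6 arrays, for all tested probe sets (grey) and the 30 members (red). Act88F, fln, TpnC4 and Strn-Mlck lie at the upper edge of the grey cloud with SDs of 0.59, 0.55, 0.44 and 0.54, while Argk1 lies low at 0.06.

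The high and low values fell unevenly on the arrays. CanS replicate 2 was the lowest of the 6 arrays for 17 of the 30 members and Calment1/4 replicate 3 for 9, against 15.2% and 18.5% of all genes. CanS replicate 3 was the highest for 14 members and CanS replicate 1 for 9, against 16.7% and 15.7%. The median of the members around their own means was 0.06, -0.04 and -0.12 in Calment1/4 replicates 1 to 3, and 0.14, -0.21 and 0.14 in CanS replicates 1 to 3. Leaving out CanS replicate 2, 10 of the 30 members had an unadjusted p under 0.05 in limma, all lower in Calment1/4, where 3.73% of all probe sets did so in that direction. They were Act88F (-0.996), fln (-0.91), Strn-Mlck (-0.70), Zasp67 (-0.63), Mlc2 (-0.57), Act79B (-0.51), Mlc1 (-0.42), up (-0.34), Unc-89 (-0.32) and Prm (-0.30). None passed after adjustment even then, the lowest adjusted p in limma being 0.109 for Act88F. CanS replicate 2 was itself the lowest array for 17 members, so leaving it out raises their CanS means by construction. No other setting had more than 3 members at an unadjusted p under 0.05 in limma. Members share arrays, so the 10 are not separate results. Without CanS replicate 3, in contrast, 0 members reached an unadjusted p under 0.05 and the lowest adjusted p in limma was 0.994.

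Probe sets of 1 gene did not always vary together. Of the 30 genes, 19 had 1 probe set, 6 had 2 and 5 had 3, which makes 46 in all. Mlp60A was steady on its brightest probe set, with a within-group SD of 0.07, but its dimmer probe sets had SDs of 0.38 and 0.32. The second of its probe sets read 8.04, 7.67 and 7.36 in Calment1/4, against 7.88, 7.35 and 8.17 in CanS, so its 6 arrays were in the same order as those of TpnC4. The dimmest probe set of Zasp66 was the only one of the 46 whose groups did not overlap, where 12.6% of all probe sets did not. It stood at 6.52, 6.38 and 6.44 in Calment1/4 and 6.36, 6.12 and 6.12 in CanS. It differed by 0.25 (SE 0.09, adjusted p = 0.552 in limma). It was also the only one of the 46 with an unadjusted p under 0.05 in limma (0.0309), against 7.67% of all probe sets. Both counts are thus below the shares over all probe sets. Which transcripts each probe set detects was not analysed here.

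**Figure D4:**
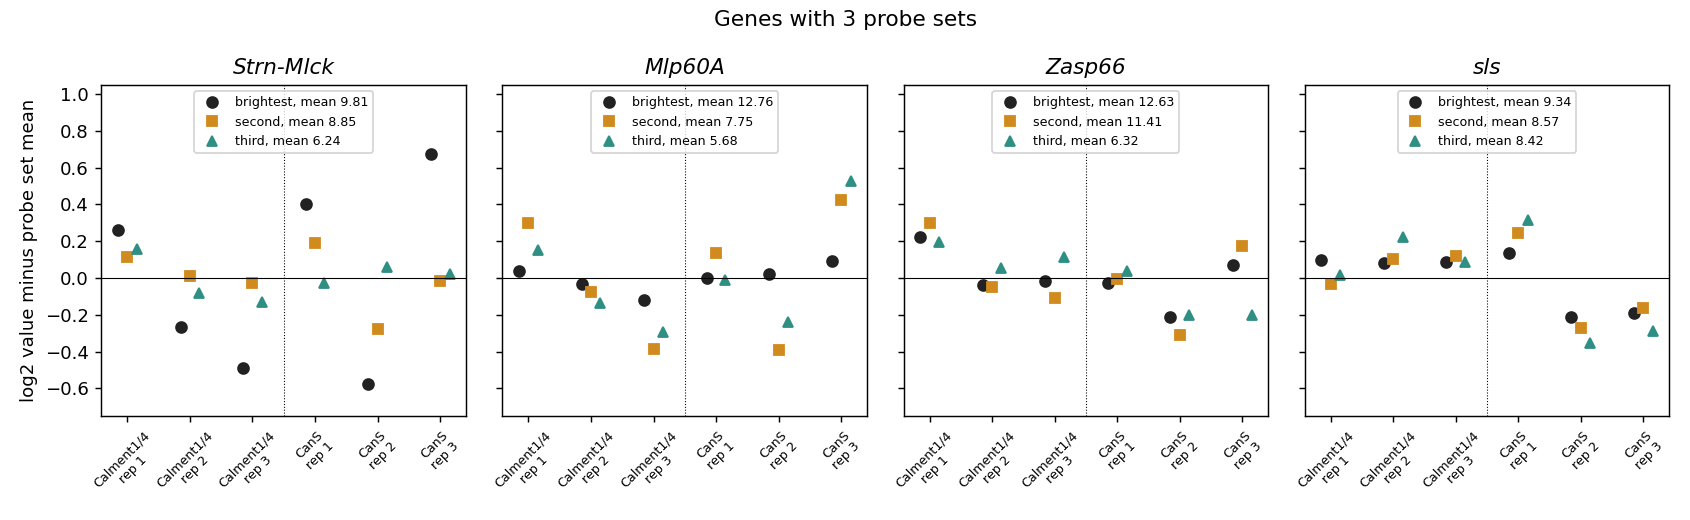
Log2 value minus the probe set's own mean on each array, Calment1/4 left of the dotted line and CanS right, for Strn-Mlck, Mlp60A, Zasp66 and sls, 4 of the 5 genes with 3 probe sets. The 3 probe sets of sls move together, whereas those of Strn-Mlck spanned 2.38-fold, 1.39-fold and 1.22-fold.

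Other genes of muscle were read from a second list of 42, of which 34 had a probe set of their own. It holds further sarcomere proteins, muscle fate regulators, fusion and attachment genes. None of the 34 passed the threshold in limma, where 0.464% of all tested probe sets did. An unadjusted p under 0.05 was found for 4, all higher in Calment1/4, against 3.71% of all probe sets in that direction. The median difference of the 34 was 0.04. The smallest p belonged to mbl, which encodes the splicing regulator Muscleblind, with 6.35, 6.42 and 6.60 in Calment1/4 and 6.05, 5.78 and 5.95 in CanS. All 3 Calment1/4 arrays lay above the CanS arrays, and the difference of 0.53 (SE 0.10) had an adjusted p of 0.0976 in limma. Dys, the dystrophin gene, was at 0.22, Msp300, a giant nesprin of muscle, at 0.33, and sns, a cell adhesion gene of myoblast fusion, at 0.25 (adjusted p = 0.577, 0.611 and 0.619 in limma). These values are from the brightest probe set of each gene. The genes mbl, Msp300 and Dys have 6, 6 and 5 probe sets, and the dimmer ones are not reported here. The median within-group SD of the 34 genes was 0.13, and CanS exceeded Calment1/4 in SD for 16 of 34.

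Markers of other tissues also varied between the arrays. The median of 10 eggshell genes around their means was -0.44, 0.38 and 0.34 in Calment1/4 replicates 1 to 3, and 0.29, 0.09 and -0.69 in CanS replicates 1 to 3. CanS replicate 3, the highest array for the flight-muscle isoforms (0.83), was thus the lowest for eggshell genes. Of the 10 eggshell genes 7 were above 0 in Calment1/4 minus CanS and 1 passed the threshold, where 0.464% of all tested probe sets did. The median of 9 neuron markers was 0.11, 0.12 and 0.02 in Calment1/4, against 0.13, -0.30 and -0.06 in CanS, so CanS replicate 2 was lowest there as it was for the members. In the neuron list 8 of 9 were above 0, and 0 passed. The 11 germline, 8 gut and 12 fat body and haemocyte markers had median differences of 0.07, -0.16 and -0.27. Past the threshold were 0, 0 and 1 of them, again beside 0.464% of all tested probe sets. Of the germline markers 9 of 11 were above 0, whereas all 8 gut markers and 11 of the 12 fat body and haemocyte markers were below 0. Among the gut markers, alphaTry, Jon65Aiii, Jon65Aiv and betaTry were nearly level, at -0.04, -0.04, -0.03 and -0.01. The larger gut differences were those of Mal-A1 (-1.47), Npc2e (-1.31), Npc2f (-0.40) and Jon25Bi (-0.27). The array medians of the gut markers were -0.04, -0.09 and -0.07 in Calment1/4, against 0.07, 0.09 and 0.08 in CanS. Those of the fat body and haemocyte markers were -0.14, -0.24 and -0.18 in Calment1/4, against 0.20, 0.18 and 0.10 in CanS. In both lists the groups did not overlap. The lists were chosen with earlier results of these data known, so this separation is not a test of a tissue difference. The gap between the 3' and 5' actin control probe sets, a measure of RNA integrity, was 2.51, 2.57 and 2.56 in Calment1/4 and 2.45, 2.37 and 2.53 in CanS, smallest in CanS replicate 2. The part of these differences in the members' values was not tested.

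**Figure D5:**
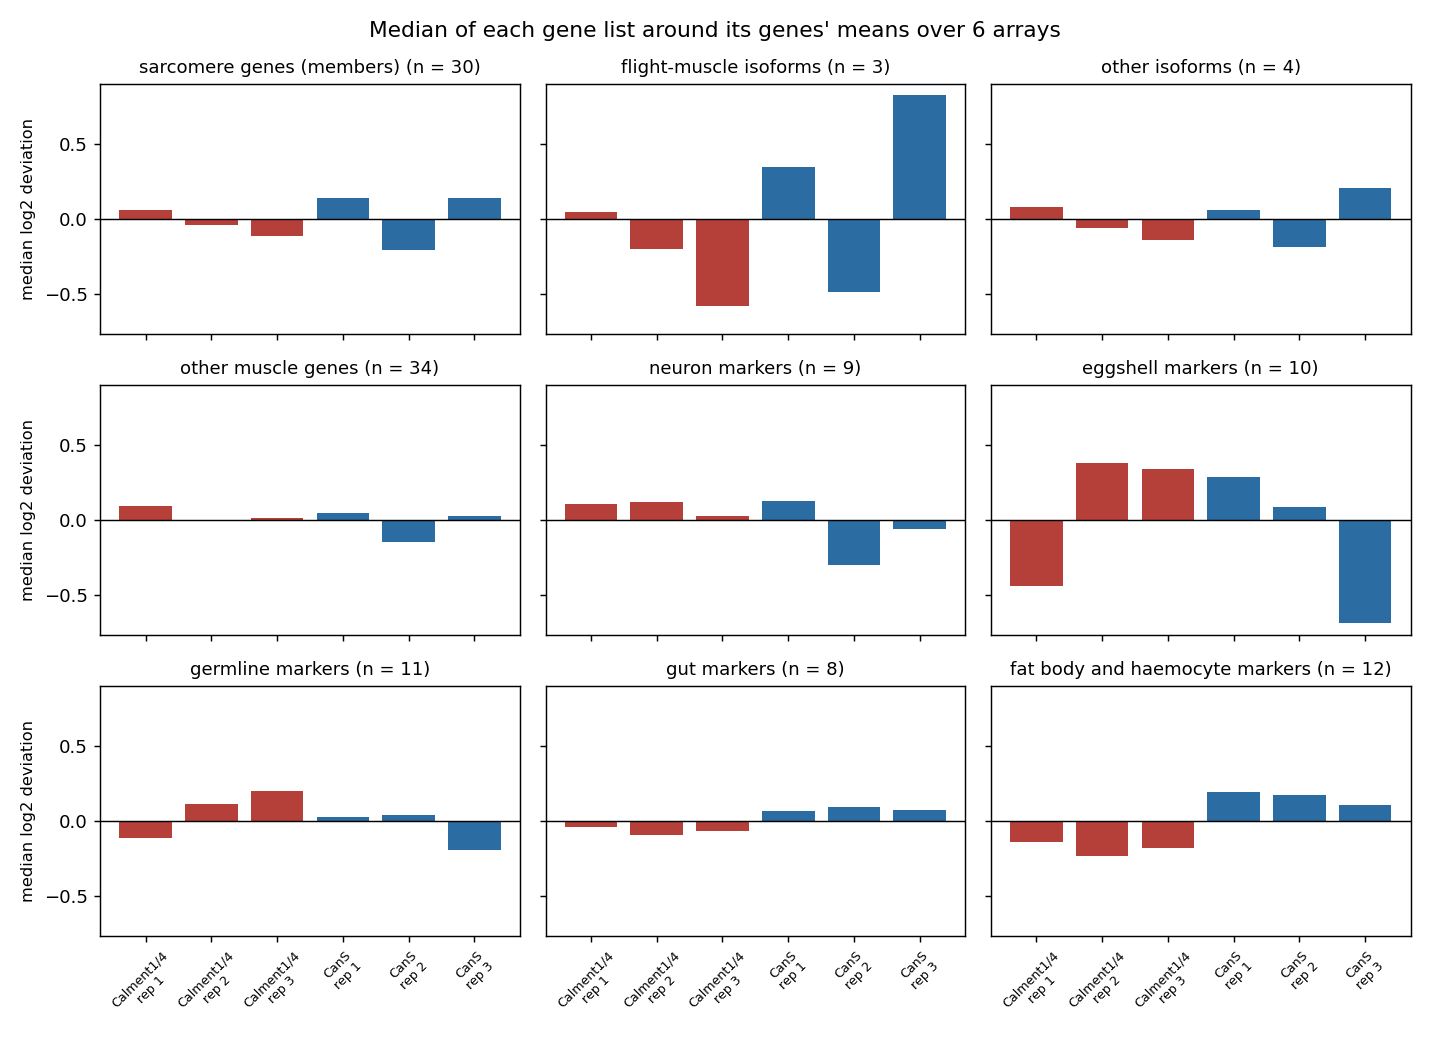
Median log2 deviation of each gene list from its genes' means over 6 arrays (bars), on each Calment1/4 array (red, left) and CanS array (blue, right), with the number of genes per list. The flight-muscle isoforms run from -0.58 in Calment1/4 replicate 3 to 0.83 in CanS replicate 3, while the eggshell markers reach their lowest value, -0.69, in CanS replicate 3.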

How the data were processed

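The deposited values are log2 expression summaries, with 1 value for each probe set on each of the 6 arrays. Per the submitters' processing notes, the software included affy (version 1.36.0) together with RMA and MAS5. Which step each served was not stated, and the sources used here hold no detection calls. After removal of 183 control probe sets, 18769 were tested. Gene names are those of the platform table, brought up to RefSeq symbols by gene identifier, symbol or unambiguous synonym. Calment1/4 and CanS were compared by limma (version 3.58.1, lmFit and eBayes, R 4.3.3) in a two-sided test with no covariate, and p-values were adjusted by Benjamini-Hochberg over all 18769. The fit was tested on simulated data, where it recovered 41.8% of changes of 0.5 log2 units and 86.6% of changes of 1. Differences near 0.5 could thus often be missed. These rates cover probe sets in general and were not taken for the members. The members had a larger median within-group SD, at 0.19 against 0.13 over all genes. For genes as variable as Act88F (SD 0.59), how often a change of 1 would be found was not measured. Titles call the arrays biological replicates. Their number limits the precision.

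Values on every array are given for the measured isoform genes and the 10 members of smallest p, and the 4 other muscle genes of smallest p are named. The probe sets of Mlp60A and Zasp66 were singled out after their values were seen. The members and lists were chosen with earlier results of these data known. Alternatives changed the normalization, dim filter, variance model, array weights, replicate block, threshold, probe set rule and arrays. No gene named Calment was found in the gene tables, so the labels were not checked through it. Figures used matplotlib 3.10.9.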

Additional observations from a re-analysis of the deposited data

How the results depend on the processing

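Counts of 0 members higher and 0 lower held under all 16 alternatives in limma, with at most 10 members at an unadjusted p under 0.05 (without CanS replicate 2). The lowest adjusted p of a member ran from 0.109 to 1.00 over them. Of 450 differences of single members under alternatives, 417 kept their direction and 33 changed sign, none with a call, in 15 of the 30 genes. The dim filter, variance model, replicate block and restriction to brightest probe sets leave a member's difference unchanged by construction. Those settings could not change a sign, so the 417 overstate how stable the directions were. The median difference of the members ran from -0.14 (without CanS replicate 2) to -0.01 (without CanS replicate 3). All probe sets called numbered 87. They were 337 with array weights, 38 at an adjusted p of 0.01, 57 when the probe sets of each gene were averaged, and 228 with Calment1/4 replicate 1 and CanS replicate 3 left out. Leaving out 1 array gave 38 (Calment1/4 replicate 2) to 281 (Calment1/4 replicate 1). The causes were not tested. With the replicate block 30 were called. Deviations of same-numbered arrays from their group means correlated at r of -0.29, 0.20 and -0.43. The probe sets behind each r vary together within an array, so these values cannot decide whether the number pairs the arrays. Without detection calls, how far a dim member such as Zasp67 stood above background is not known here.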
